A study of Mus musculus with 6 samples.

Results

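The regions described here are runs of neighbouring array probes that gave little methylated-DNA signal for the input DNA they bound, in every sample of the series. They were chosen by their level. A run qualified if it lay on an autosome, held 3 to 14 probes whose starts were at most 500 bp apart in the mm9 build, had a mean probe length of 47 to 53 bp, and had a mean log2 ratio below -0.6 on each of the 6 arrays. Of the 22574 runs of 3 or more probes on the array, 12224 met the terms on chromosome, probe number and probe length and are called eligible. Of these, 1452 (11.9%) met the limit on the ratio and are called depleted. The other 10772 eligible runs are the comparison, and 239 of them lay above 0.6 on every array and are called enriched.

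The samples were hypothalami of mouse offspring at 16 weeks of age, a part of the brain that sets appetite and energy use. There were 3 arrays from offspring of dams under inulin treatment, a fermentable plant fibre, and 3 arrays from offspring of dams with maternal obesity, also labelled as maternal high fat diet. The labels do not say whether the dams given inulin were also obese or fed the high fat diet. Strain, sex and litter were not used here, and the labels name no litter or animal for a sample, so the spread behind the p-values may be technical.

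Methylation of DNA in mammals falls mostly on cytosines followed by guanine, and methylated promoters are usually silent. In methylated DNA immunoprecipitation (MeDIP) an antibody pulls down DNA fragments that carry methylated cytosine. These fragments and the untreated input DNA of the same sample were labelled with different dyes and bound to the same array, so a low MeDIP over input ratio marks DNA that the antibody recovered poorly. By this assay, DNA with unmethylated CG sites and DNA with few CG sites cannot be told apart. The working name of the runs, promoters of intermediate GC content, could not be checked: the files hold positions and no probe sequence or gene name, and the gene tables at hand describe another build. The runs are therefore called by their position, and no gene, promoter or base composition is stated for them. For the same reason the tissue could not be checked against marker genes.

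The array carried 174638 probes outside the controls. Per array, 94.4% to 96.4% of the probes had an input signal well above background and 77.3% to 85.7% a MeDIP signal well above it. Precision is limited by the small number of arrays. By the scan times in the file headers, the 3 inulin arrays shared scan 1, obesity arrays 1 and 3 shared scan 2, and obesity array 2 was scan 3. Slide identity was not used here. No scan held both groups, so a difference between scans and a difference between groups cannot be told apart. The interquartile range of the log2 ratio over all probes was 1.37 to 1.39 on the inulin arrays and 1.62 to 1.89 on the obesity arrays. This spread moves with the results on the depleted runs below, so values with the arrays set to an equal scale are given beside them.

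The depleted runs had median log2 ratios of -1.01, -1.01 and -0.95 on inulin arrays 1, 2 and 3, and of -1.10, -1.23 and -1.09 on obesity arrays 1, 2 and 3. These levels chose the runs and are given as a description. The medians averaged -0.99 ± 0.04 over inulin arrays and -1.14 ± 0.08 over obesity arrays (SD, n = 3 each), and the medians of the groups did not overlap. With the arrays set to an equal scale the order turned, at -1.11 ± 0.04 over inulin arrays and -1.03 ± 0.03 over obesity arrays. The other eligible runs had medians near 0, averaging -0.05 over inulin arrays and -0.08 over obesity arrays. The lower quartile lay between -1.54 and -1.23 on the 6 arrays and the upper quartile between -0.996 and -0.78, and the lowest run reached between -3.52 and -2.92. Over all 6 arrays the mean ratio of a run was between -3.11 and -0.65, with 102 runs below -2 and 631 above -1.

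Nearest inside the limit were chr12:88540193-88542302, chr2:32090912-32092655, chr10:126748351-126750063 and chr7:49702957-49704078, each with a highest array value of -0.60 and mean ratios of -0.74, -0.87, -0.75 and -0.72. Nearest outside were chr10:92184676-92186302, chr14:51815171-51816754, chr6:119796922-119799346 and chr7:140050152-140051306, with highest array values that also round to -0.60 and mean ratios of -0.74, -0.89, -0.67 and -0.74. The mean ratios of the runs on either side of the limit overlapped.

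**Figure D1:**
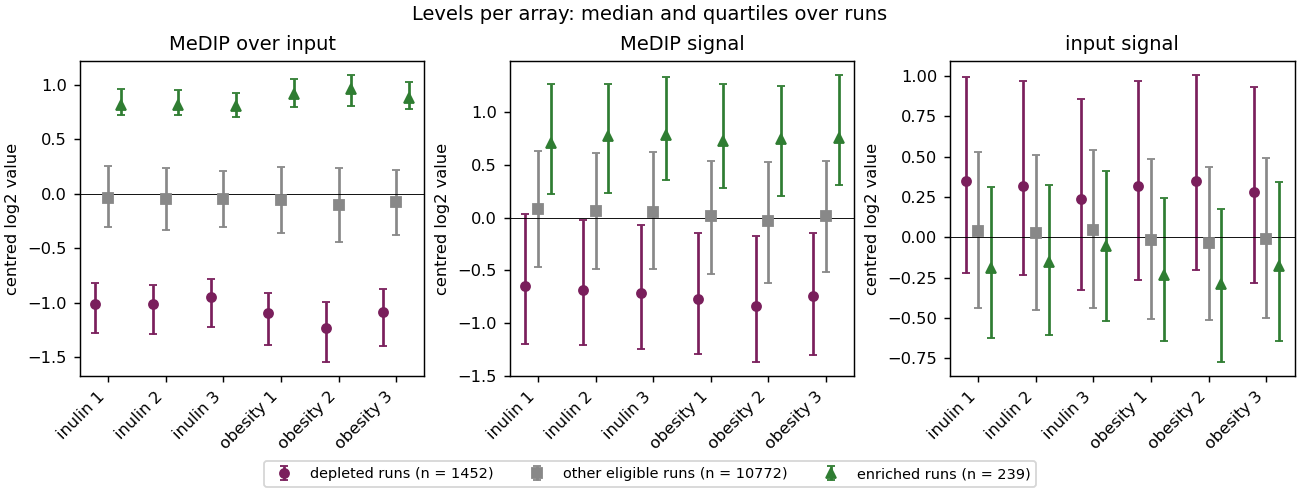
Centred log2 values per array (x axis) of the MeDIP over input ratio, the MeDIP signal and the input signal, for the depleted runs, the other eligible runs (which include the enriched runs) and the enriched runs; points are medians over runs and bars run from the lower to the upper quartile. The depleted runs, which were chosen by this ratio, had low MeDIP and raised input signal on all 6 arrays, with ratio medians between -1.23 and -0.95.

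Both channels of the depleted runs departed from the array median. The rule asked for a MeDIP signal that was low against the input signal. A low MeDIP level and a raised input level therefore follow in part from the rule, and are given as a description. The MeDIP signal of the depleted runs, as a log2 value centred on each array, averaged -0.68 ± 0.03 over the inulin arrays and -0.78 ± 0.05 over the obesity arrays (SD of the array medians, n = 3 each). Their input signal averaged 0.30 ± 0.06 over inulin arrays and 0.32 ± 0.03 over obesity arrays. In the other eligible runs the MeDIP signal averaged 0.07 over inulin arrays and 0.00 over obesity arrays, and the input signal 0.04 over inulin arrays and -0.02 over obesity arrays. The MeDIP level over all arrays was below the array median in 1125 depleted runs and above it in 327. Signal strength depends on each probe's own binding as well as on the amount of DNA. The copy number of a region therefore cannot be read from these levels, and it was not tested.

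The MeDIP signal of the depleted runs was often dim. In the median depleted run 71.4% of the probe spots were well above background in the MeDIP channel, against 83.3% in the median run of the other eligible runs. The input was well above background at all spots of the median run in both sets. In 140 depleted runs (9.64%) every MeDIP spot was well above background, in 139 fewer than 50% were, and in 1 none was. A spot that is not well above background gives only a bound on the ratio, so part of the depth of these runs is a bound.

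A small set of the depleted runs differed from the rest in its input signal. In 161 of them (11.1%) the centred log2 input was above 2, a limit chosen after the values were seen. These bright runs made up most of the deepest ones: 38 of the 50 depleted runs with the lowest mean ratio were bright. Their array medians of the ratio averaged -1.79 ± 0.03 over inulin arrays and -1.97 ± 0.13 over obesity arrays. The order turned on the equal scale, at -2.01 ± 0.03 over inulin arrays and -1.78 ± 0.20 over obesity arrays. Their MeDIP signal was not low in itself, at 1.19 ± 0.15 over inulin arrays and 0.93 ± 0.12 over obesity arrays (SD of array medians, n = 3 each). Their input signal was higher still, at 2.79 ± 0.14 over inulin arrays and 2.79 ± 0.05 over obesity arrays. In 155 of the 161 bright runs the MeDIP level was above the array median. The remaining 1291 depleted runs had a MeDIP signal of -0.79 ± 0.03 over inulin arrays and -0.90 ± 0.04 over obesity arrays, with an input of 0.20 ± 0.06 over inulin arrays and 0.19 ± 0.04 over obesity arrays.

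Seen from the input side, 161 of the 244 eligible runs with an input level above 2 were depleted (66.0%), against 1291 of the 11980 runs at or below 2 (10.8%). The share was larger at each step of the input level, at 6.96% of the runs below -1, then 9.11%, 11.7% and 17.0% in steps of 1, 58.5% of the runs between 2 and 3 and 85.3% of those above 3. The input signal is the denominator of the ratio that chose the runs, so this share is a description of them.

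**Figure D2:**
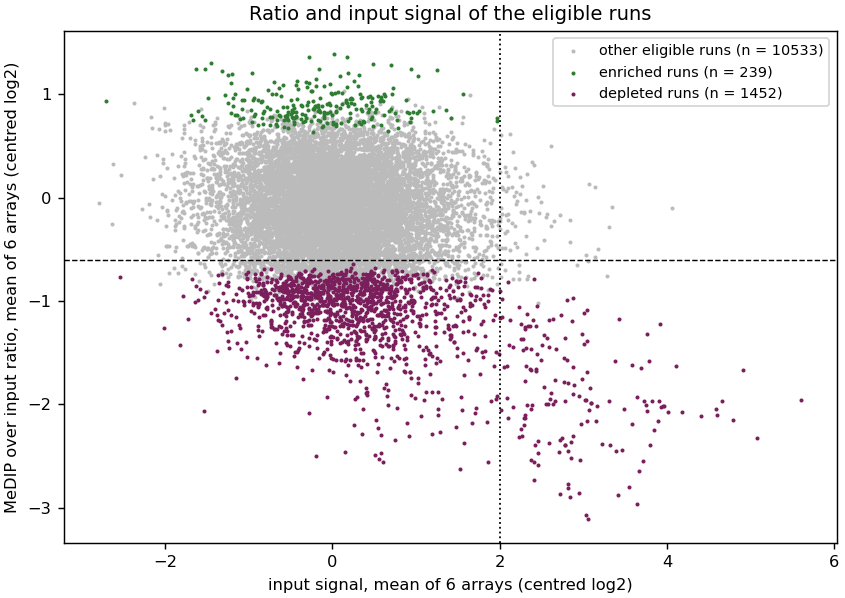
Mean log2 MeDIP over input ratio of each eligible run (y axis) against its mean centred log2 input signal (x axis), both over 6 arrays; grey points are the eligible runs that are neither depleted nor enriched, the dashed line is the limit of -0.6 and the dotted line an input level of 2. To the right of the dotted line 161 of 244 runs are depleted, and 38 of the 50 deepest runs lie there.

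Of the 5 deepest depleted runs, 4 lay close together on chromosome 5. The lowest was chr5:95416425-95418188, with 7 probes. Its log2 ratio was -3.001, -3.08 and -2.92 on the inulin arrays and -3.15, -3.38 and -3.16 on the obesity arrays. The groups did not overlap, with the obesity arrays lower, but the difference of 0.23 did not pass the threshold (limma adjusted p = 0.124). The direction turned on the equal scale, where the difference of -0.46 passed (limma adjusted p = 0.0264). Each of its 7 probes was low, with means over the arrays of -3.50, -3.44, -3.32, -3.17, -1.99, -2.62 and -3.57 in order of position. The next were chr5:95733643-95735074 with a mean ratio of -3.08, chr5:96204355-96205074 with -2.96, chr2:176265474-176266778 with -2.90 and chr5:95885184-95885890 with -2.88. All 5 were bright, with input levels between 2.84 and 3.64. Under median centring the third, the fourth and the fifth of these 5 were called higher. Their differences were 0.49, 0.47 and 0.65 (limma adjusted p = 0.0323, 0.041 and 0.0146). On the equal scale the second was called lower, with -0.54 (limma adjusted p = 0.0326). Outlier spots left out of the means touched all 5, with 3 to 6 spots each.

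Some depleted runs repeated each other's probe layout exactly, meaning the same spacing and the same probe lengths read from either side. This held for 35 depleted runs (2.41%) and for 19 of the other eligible runs (0.176%). The 35 runs fell into 17 layouts, each confined to a single chromosome, and in 16 of the 17 layouts every run was depleted. Within a layout the mean ratios of the runs spanned a median of 0.02 and at most 0.15 log2 units. Of the 35 runs, 28 were bright. Runs of 1 layout may bind the same DNA fragments, so they are not separate observations.

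Chromosome 2 held 5 of these layouts, between positions 175294521 and 177632150, with mean ratios from -2.90 to -2.38. A layout of 9 probes on chromosome 7 occurred between 33614173 and 33842771, with ratios of -2.81 and -2.78 and input levels of 2.81 and 2.82. A layout of 7 probes on chromosome 4 occurred 3 times between 73521685 and 73553118, with ratios from -2.13 to -2.11. On chromosome 10, 5 runs in 2 layouts lay between 99797115 and 99829586 with ratios from -1.47 to -1.37. Repeated layouts were not always bright: those on chromosome 8, between 22193817 and 22331697 and between 22566652 and 22706206, had ratios of -2.53 to -1.88 at input levels of only 0.40 to 0.55.

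The depleted runs were found on all 19 autosomes, but unevenly. Their share of the eligible runs was between 8.12% on chromosome 16 and 17.0% on chromosome 4, with 16.4% on chromosome 7 and 11.9% overall. In windows of 2000000 bp, 25 of the 1151 windows with an eligible run held 9 or more depleted runs, and together these 25 held 277 of the 1452. In 2 of them every eligible run was depleted: all 12 on chromosome 2 between 176 and 178 Mb, with a median ratio of -2.32, and all 10 on chromosome 7 between 32 and 34 Mb, with a median ratio of -1.36. The window on chromosome 4 between 60 and 62 Mb followed with 16 of 17, a median ratio of -1.96 and a median input of 2.66. The window on chromosome 5 between 14 and 16 Mb held 9 of 12, with a median ratio of -1.99 and the highest median input of these windows, 3.87.

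The window on chromosome 2 between 174 and 176 Mb held 9 of 13, at a median ratio of -2.39 and a median input of 2.72. In the 5 windows named so far the median input was above 2. In the other 20 crowded windows it lay between -0.31 and 0.93. The window on chromosome 19 between 12 and 14 Mb held 14 depleted runs of 24 at a median input of -0.06, and the one on chromosome 9 between 108 and 110 Mb held 17 of 37 at 0.40. On chromosome 4, the windows from 142 to 144 and from 144 to 146 Mb held 13 of 18 and 9 of 15, at median inputs of 0.56 and 0.49.

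The nearest other run on the chromosome was also low more often than around other eligible runs. The mean ratio of the nearest run had a median of -0.42 beside depleted runs and -0.04 beside the other eligible runs, and it was itself depleted in 20.2% and 6.40% of cases. Beside the depleted runs with an input level at or below 2 these values were -0.35 and 16.0%. At the shortest distance the medians were close to each other. For neighbours within 1000 bp the median was -0.02 beside 92 depleted runs and -0.04 beside 427 other eligible runs. It was -0.38 from 1000 to 5000 bp, -0.48 from 5000 to 20000 bp, -0.54 from 20000 to 100000 bp and -0.24 beyond, while beside the other eligible runs it stayed between -0.06 and -0.04. Neighbouring runs share their libraries and, where close, DNA fragments, and these values carry no test.

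**Figure D3:**
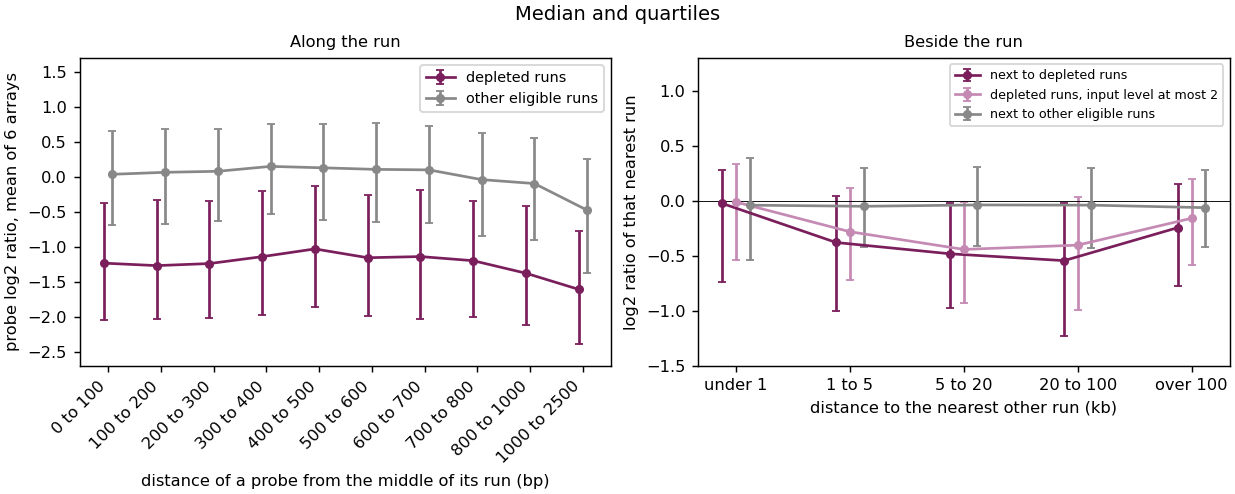
Left, log2 ratio of single probes (mean of 6 arrays) against their distance from the middle of their run, for depleted and other eligible runs; right, mean log2 ratio of the nearest other run against its distance, also for the depleted runs with an input level at or below 2; points are medians and bars run from the lower to the upper quartile. The depleted runs, chosen by the mean of these probe values, had medians between -1.61 and -1.03 at each distance from the middle. Neighbours were low at 1 to 100 kb but not within 1 kb.

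Along a depleted run the low ratio reached from the middle to both ends. The median probe ratio was -1.23 within 100 bp of the middle, -1.03 at 400 to 500 bp, -1.38 at 800 to 1000 bp and -1.61 beyond 1000 bp. In the other eligible runs the corresponding medians were 0.04, 0.13, -0.09 and -0.47, so both sets were lowest at the far ends. Of the 10528 probes in depleted runs 67.0% had a mean ratio below -0.6, against 27.7% of the probes in the other eligible runs, and 17.7% had one above 0.

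The probes of 1 run were far from uniform. In 177 depleted runs every probe lay below -0.6, in 118 fewer than 50% did, and in 529 at least 1 probe lay above 0.6. The lowest probe of a depleted run had a median of -2.57 and the highest a median of 0.35, against -1.51 and 1.26 in the other eligible runs. The median SD over the probes of a run was 1.06 in depleted runs and 0.97 in the other eligible runs. A limit on the run's mean therefore gathers runs that are low throughout and runs in which a few very low probes set the mean.

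The share of depleted runs was larger among runs with longer probes. It was 2.68% of the eligible runs at 47 to 48 bp, and then 6.11%, 11.1%, 17.97%, 23.9% and 35.2% in steps of 1 bp up to 52 to 53 bp. Probe lengths on the array were between 45 and 60 bp. The files give no sequence, so what else differed between short and long probes was not analysed here. Runs of 3 probes were depleted in 24.4% of cases and runs of 8 probes, the most common number, in 10.03%.

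The first comparison of the groups asked whether the ratio of the depleted runs differed between the inulin group and the maternal obesity group. The rule did not use this contrast, but it removed every run that was above the limit in either group, which bounds the differences that the remaining runs can show. By limma with Benjamini-Hochberg adjustment over all 22574 runs, 145 of the 1452 depleted runs had a higher ratio, that is, were less depleted, in the inulin group and 4 had a lower one. On the equal scale most called runs were lower, though 0 of the 145 runs called higher were called lower there. Under median centring 5.61% of all runs were called higher and 1.81% lower, and among the depleted runs the shares were 9.99% and 0.275%. The median log2 difference between inulin and obesity arrays, positive where inulin is higher, was 0.14 over the depleted runs and 0.03 over all runs, and it was positive in 1159 of the depleted runs (79.8%) and in 57.3% of all runs. At an unadjusted p under 0.05 there were 513 depleted runs (35.3%), against 28.6% of all runs. The groups did not overlap, with all inulin arrays higher, in 508 depleted runs, and with all inulin arrays lower in 40. Over all runs these shares were 20.8% and 14.2%. Of the other eligible runs 3.39% were called higher and 1.4% lower, with a median difference of 0.03, and 0.02 on the equal scale. Among the 239 enriched runs 0 were called higher and 10 (4.18%) lower. Their median difference was -0.08, and 0.10 on the equal scale, so the signs were opposite to those of the depleted runs. What lies behind this was not tested.

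The direction of this shift depended on the scale of the arrays. With the arrays set to an equal scale, 2 depleted runs were called higher and 100 lower in the inulin group (over all runs 2.15% and 1.89%), and the median difference was -0.11, against 0.02 over all runs. After quantile normalization 3 were higher and 50 lower (over all runs 1.11% and 1.09%), and the median difference was -0.09. The authors' deposited table had 3 higher and 82 lower (over all runs 1.1% and 1.48%). With loess within arrays 240 were higher and 10 lower (over all runs 8.46% and 3.95%), and with normexp background correction 141 and 25 (over all runs 4.55% and 3.96%). With arrays centred on the depleted runs' own median, 47 were higher and 54 lower (over all runs 2.63% and 13.1%), but that centring itself sets their median difference near 0.

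Single runs turned with the scale as well. Of the 1452 depleted runs, 296 (20.4%) had a positive difference under median centring, the equal scale, quantile normalization, loess, normexp and in the deposited table, 198 (13.6%) a negative one in all 6 of these, and 958 (66.0%) changed sign. Over all runs 28.2% were positive and 25.7% negative in all 6. Of the 145 runs called higher, 125 kept a positive difference on the equal scale and 2 were called there. All 4 runs called lower were also called lower on the equal scale and were negative in all 6 scalings.

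The limit on the ratio also caps how far a run near it can rise above its own mean on any array, so differences by depth are set in part by the rule and are given as a description. In 4 equal sets of 363 depleted runs, ordered from the lowest mean ratio to the highest, the median difference under median centring was 0.22, 0.17, 0.13 and 0.08, with 64, 39, 38 and 4 runs called higher. On the equal scale the median difference was -0.17, -0.10, -0.09 and -0.09. The bright runs lay mostly in the lowest set, 131 of 161, and 36 of them were among the 145 called higher.

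**Figure D4:**
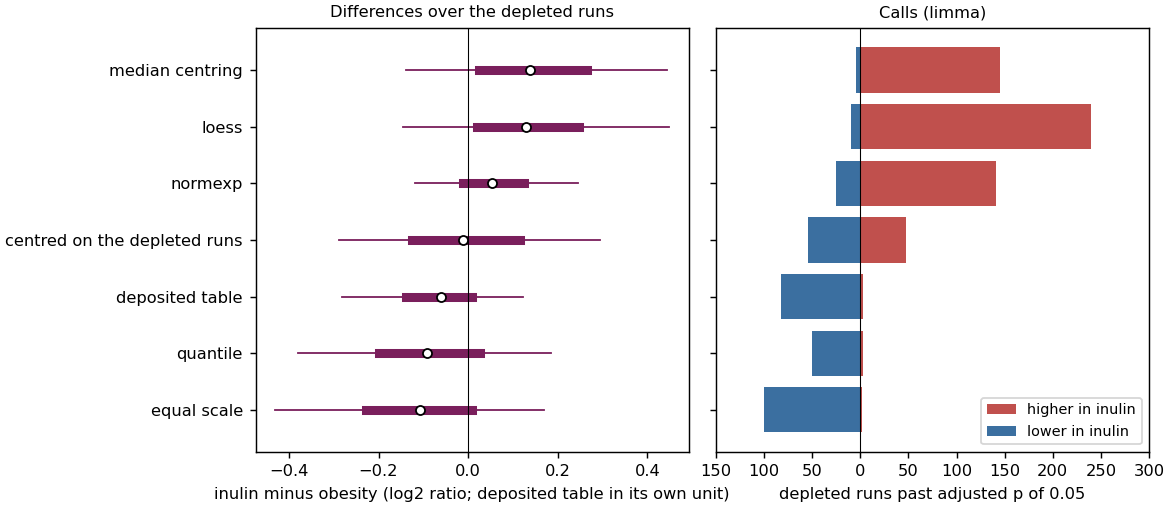
Left, differences between the groups over the 1452 depleted runs under 7 ways of setting the arrays' level and scale (dot, median; thick bar, quartiles; thin line, 5th to 95th percentile); right, depleted runs past an adjusted p of 0.05 by limma, higher in inulin to the right of 0 and lower to the left. The median is 0.14 with median centring and -0.11 on the equal scale. Most calls are higher in the first and lower in the second, but 0 of the 145 runs called higher in the first are called lower in the second.

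The calls were lost without any 1 inulin array and with scan as a random block, over all runs as well as in the depleted ones, while the median difference stayed near its size. Without inulin array 1, 2 or 3, limma with Benjamini-Hochberg adjustment called 0 depleted runs and 0 (0%) of all runs. Of the depleted runs, 392, 382 and 401 (27.0%, 26.3% and 27.6%) then had an unadjusted p under 0.05, against 20.8%, 19.1% and 24.0% of all runs, and their median difference was 0.15, 0.15 and 0.12. Without obesity array 1, 2 or 3, it called 87, 172 and 68 depleted runs, which is 5.99%, 11.8% and 4.68%, against 4.22%, 9.62% and 2.8% of all runs. With scan as a random block it called 0 depleted runs and 0 of all runs. In that fit 363 of the 1452 depleted runs had an unadjusted p under 0.05, against 17.9% of all runs, and their median difference was 0.15.

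Among the 145 runs called higher the difference was between 0.26 and 0.86, with a median of 0.43. The 10 with the largest difference are named here by position. No outlier spot was left out in 83 of the 145 runs, and 137 of the 145 remained called higher when limma was run on the probes with a value on all 6 arrays, a choice made after the data were seen. In that fit 212 depleted runs were higher and 12 lower, against 7.32% and 3.07% of all runs.

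The largest difference, at chr10:18506324-18506869, rested in part on left out spots. The run had 3 probes and ratios of -0.90, -0.90 and -1.34 on the inulin arrays and -1.54, -2.23 and -1.94 on the obesity arrays, a difference of 0.86 (SE 0.18, limma adjusted p = 0.029). Its middle probe, with a ratio near 0, had a value only on inulin arrays 1 and 2, which are also the highest arrays. Over the other 2 probes the difference was 0.55 (adjusted p = 0.0458 by limma). With the outlier spots kept it was 0.37 and did not pass (limma adjusted p = 0.0672), and on the equal scale 0.53 (adjusted p = 0.0674).

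The run at chr19:25035686-25036970 had no left out spot. Its ratio was -0.97, -0.97 and -1.07 on the inulin arrays and -1.57, -1.90 and -1.71 on the obesity arrays. Every inulin array was above every obesity array, with a difference of 0.72 (SE 0.09, limma adjusted p = 0.0146). It is 1 of the 2 higher runs that were also called on the equal scale, where the difference was 0.43 (adjusted p = 0.0241 by limma). Of its 6 probes, 5 were low and the fourth had a mean ratio of 0.90. Its MeDIP signal was dim: 3 probes were not well above background on any inulin array and 2 on any obesity array. Over the probes above background in both channels the difference was 0.33 and did not pass (limma adjusted p = 0.0593).

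The other run called on both scales was chr7:116037423-116039188, with 9 probes. Its ratio was -1.12, -1.09 and -1.07 on the inulin arrays and -1.66, -1.82 and -1.64 on the obesity arrays. The groups were far apart for their spread, at -1.10 ± 0.03 on inulin arrays and -1.71 ± 0.10 on obesity arrays (SD, n = 3 each), with a limma adjusted p of 0.0146, and of 0.041 on the equal scale. On the inulin arrays its MeDIP signal was 0.93 higher and its input signal 0.34 higher, neither past the adjusted threshold by itself (limma adjusted p = 0.0537 and 0.122).

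The run at chr4:60514360-60516064 had 9 probes, 2 left out spots and an input level of 3.02. Its ratio was -1.63, -1.61 and -1.59 on the inulin arrays and -2.16, -2.40 and -2.36 on the obesity arrays, a difference of 0.70 (SE 0.08, limma adjusted p = 0.0145). The equal scale gave a difference of 0.27 (limma adjusted p = 0.0652). All 9 probes had a mean ratio below 0, the highest being the third at -0.42. It lay in the crowded window on chromosome 4 between 60 and 62 Mb, where 12 of the 16 depleted runs were called higher. The median difference of those 16 was 0.46, and 0.05 on the equal scale.

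The run at chr5:95885184-95885890, with 4 probes, was both among the 5 deepest and among the 10 largest differences. Its ratio was -2.56, -2.59 and -2.51 on the inulin arrays and -3.06, -3.25 and -3.30 on the obesity arrays. The difference was 0.65 (limma adjusted p = 0.0146) and on the equal scale 0.02 (adjusted p = 0.911). Its second probe, the least depleted, had no value on any obesity array. Over the 2 probes with all 6 values the difference was 0.62 (limma adjusted p = 0.0157).

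The remaining 5 of these 10 had differences from 0.61 to 0.69. They were chr12:89512569-89513371 (0.69), chr6:117849118-117849704 (0.64), chr7:49947797-49949231 (0.64), chr7:110400534-110402079 (0.62) and chr3:87862942-87863432 (0.61), with limma adjusted p between 0.0145 and 0.0213. In each the 3 inulin arrays lay above the 3 obesity arrays. On the equal scale the differences kept their sign but none of these 5 passed, with limma adjusted p from 0.0557 to 0.546.

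**Figure D5:**
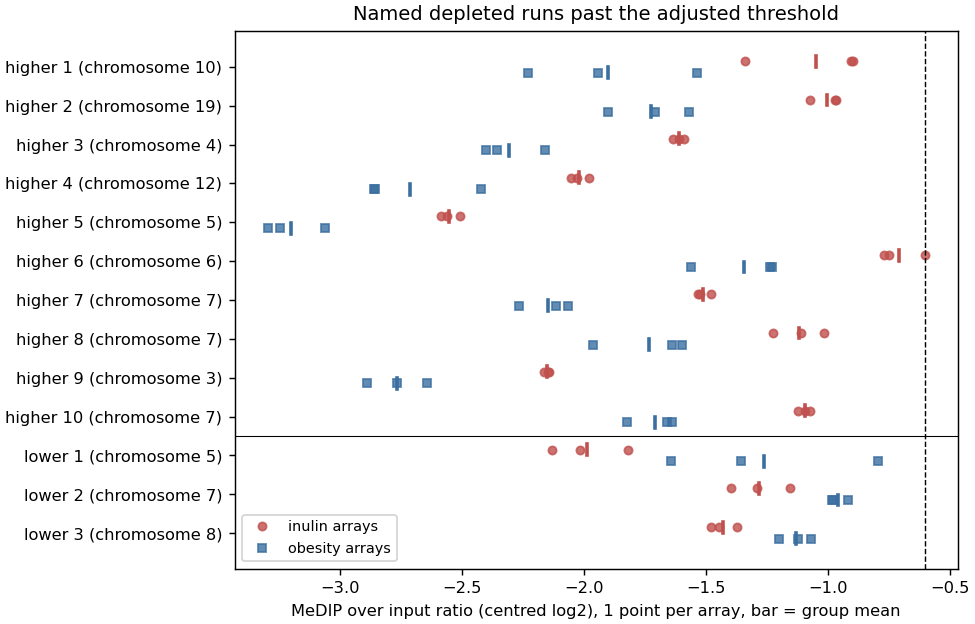
Log2 MeDIP over input ratio of the named depleted runs past the adjusted threshold, 1 point per array and a bar for each group's mean (x axis); rows are the 10 runs with the largest positive difference and the 3 with a negative one outside chromosome 18, in the order of size, and the dashed line is the limit of -0.6. In the 10 upper rows every inulin array lies above every obesity array, and in the 3 lower rows below.

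Of the 4 runs called lower, 3 are named. The difference was largest at chr5:14943996-14945649, with 7 probes, where the ratio was -2.02, -1.82 and -2.13 on the inulin arrays and -1.36, -0.79 and -1.64 on the obesity arrays, a difference of -0.73 (limma adjusted p = 0.0494). This run was the brightest of the named ones, at an input level of 4.10, and on the inulin arrays its input signal was 1.08 higher (limma adjusted p = 0.00924) while its MeDIP signal was 0.34 higher (adjusted p = 0.392). The groups did not overlap on the ratio. The difference was -1.08 on the equal scale (limma adjusted p = 0.0264), and over probes above background in both channels it was still -0.73 but did not pass (adjusted p = 0.0507).

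At chr7:34527518-34529198, with 8 probes, the ratio was -1.40, -1.29 and -1.16 on the inulin arrays and -0.98, -0.98 and -0.92 on the obesity arrays, a difference of -0.32 (limma adjusted p = 0.0463). At chr8:46592585-46593481, with 5 probes, it was -1.45, -1.48 and -1.37 on the inulin arrays and -1.07, -1.20 and -1.12 on the obesity arrays, a difference of -0.30 (limma adjusted p = 0.0414). In both runs the groups did not overlap and the input signal differed by -0.03 and 0.03. On the equal scale their differences were larger, -0.57 and -0.59, with limma adjusted p of 0.0201 and 0.0147. With normexp they were -0.13 and -0.03 and did not pass (limma adjusted p = 0.104 and 0.741). Over probes above background in both channels the first was -0.15 (limma adjusted p = 0.209), and with outlier spots kept -0.17 (adjusted p = 0.101). In the first run 3 spots were left out, and its probes did not all share the direction. Its groups lay furthest apart at the probe starting at 34528536. The inulin arrays there had -1.55, -1.68 and -1.06, and the obesity arrays -0.13, -0.04 and 0.14. At the probe starting at 34528123 inulin was higher, with -1.12, -1.13 and -1.18 against -1.25, -1.42 and -1.24 on obesity arrays. At the second run 43.3% of the MeDIP spots were well above background.

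The second comparison took each channel by itself, since the ratio does not say which dye differed. In the input channel limma with Benjamini-Hochberg adjustment called 17 depleted runs higher and 24 lower in the inulin group, against 1.24% and 0.899% of all runs. In the MeDIP channel it called 4 higher and 1 lower, against 0.155% and 0.0975% of all runs. At an unadjusted p under 0.05 there were 334 depleted runs on the input channel (23.0%) and 383 on the MeDIP channel (26.4%), against 24.4% and 21.0% of all runs. The runs called higher on the ratio had a median input difference of -0.14 and a median MeDIP difference of 0.28. The 2 channels differed in the same direction in 70.9% of the depleted runs and in 71.4% of all runs.

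The lowest p on the input channel belonged to 3 bright runs close together on chromosome 5. At chr5:14914398-14916070 the input was 1.39 higher in the inulin group (limma adjusted p = 0.00637) and the MeDIP signal 1.19 higher (adjusted p = 0.0321), and the ratio differed by -0.19 (adjusted p = 0.193). At chr5:15185382-15186836 the input was 1.71 higher (limma adjusted p = 0.0212) and the MeDIP signal 1.39 higher (adjusted p = 0.0335), with a ratio difference of -0.30 (adjusted p = 0.21). The third was the run at chr5:14943996 described above. In the first and the second of these runs both channels rose together, and the ratio did not pass the threshold under median centring. On the equal scale both ratios were lower in the inulin group and passed, at -0.62 (limma adjusted p = 0.0264) and -0.61 (adjusted p = 0.0452). They also passed with normexp (limma adjusted p = 0.0109 and 0.0256) and when limma was run on the authors' deposited table (adjusted p = 0.000796 and 0.0171). The remaining named run of the MeDIP channel was chr5:95885184-95885890, at 1.26 (limma adjusted p = 0.0321), whose input was 0.63 higher (adjusted p = 0.039).

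At the level of single probes, 10199 of the 10528 probes of the depleted runs had values on enough arrays for the limma fit, and 824 were called higher and 270 lower in the inulin group. Over all 170019 probes fitted, 5.12% were called higher and 3.08% lower. On the equal scale 106 of the depleted runs' probes were higher and 420 lower, against 1.72% and 1.79% of all probes. With scan as a random block 21 were higher and 1 lower, against 0.141% and 0.0176% of all probes.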

How the data were processed

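Per the labels' protocols, the 6 two-colour Agilent arrays held MeDIP DNA in Cy5 (red) and input DNA of the same sample in Cy3 (green). The authors used, per the file headers, the protocol ChIP_1100_Jul11 of Feature Extraction 11.0.1.1 on the scans, with mm9 positions, and the processed signals are intensity values after background subtraction and a linear dye factor. The deposited log10 ratio of red over green equalled that of the processed signals within 0.0001 at 98.5% to 99.6% of the spots. The authors' deposited table holds a score per probe whose correlation with each array's log2 ratio was 0.87 to 0.91, so both run in the same direction. Its log base, scale and centring are unknown. Its medians were 0.061, 0.057 and 0.043 for inulin arrays and 0.056, 0.054 and 0.054 for obesity arrays, and the steps behind it are not given in the sources used here.

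Values were log2 of red over green processed signal, without spots marked as outliers (1901 to 4863 per array), minus each array's median outside the controls, with neither loess nor quantile normalization. The probes of a run were averaged, and runs and probes needed values on at least 2 arrays per group. Two-sided tests between groups used lmFit and eBayes of limma 3.58.1 (R 4.3.3), adjusted by Benjamini-Hochberg over all runs or probes, with a threshold of 0.05, and give inulin minus obesity. The fit was tested on simulated data with independent noise of equal size on each array and no scan effect. That test therefore does not bear on differences of scan or scale between the groups. Figures were drawn with matplotlib 3.10.9.

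Runs named are, outside chromosome 18, up to 10 called runs per direction, by size of the difference, the 5 lowest, the 4 on each side of the limit, and the 3 with the lowest p per channel. The members, lists and limits were chosen with earlier results of these data known. Gene lists were not analysed here, because no probe is paired with a gene in mm9. The scan of each array was taken from the scan time in the file headers and stood in for slide as a block. The alternatives were other background corrections, scalings, filters, blocks, weights, summaries, gaps and limits, and leaving out each array.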

Additional observations from a re-analysis of the deposited data

How the results depend on the processing

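Of the 1452 depleted runs, 149 were called (limma, 145 higher and 4 lower). The total was 250 with loess within arrays, 279 with outlier spots kept, 224 over probes with a value on all 6 arrays (added after seeing the data), 487 with array weights, 81 with a robust prior and a trend, 76 with the median of the probes and 331 at an adjusted p under 0.1, each with most runs higher. Of the depleted runs and of all runs, the main fit called 10.3% and 7.42%, and loess 17.2% and 12.4%. Keeping outlier spots gave 19.2% and 11.7%, and probes on all 6 arrays 15.4% and 10.4%. Array weights gave 33.5% and 30.4%, and the robust prior 5.58% and 7.38%, a smaller share than over all runs. The median of the probes gave 5.23% and 3.25%, and the adjusted p under 0.1 gave 22.8% and 17.7%. The majority turned on the equal scale (102), in the authors' deposited table (85) and after quantile normalization (53). These were 7.02%, 5.85% and 3.65% of the depleted runs, against 4.04%, 2.58% and 2.2% of all runs. With arrays centred on the depleted runs, which by construction puts their median difference near 0 (-0.0115) and that of all runs at -0.12, 101 were called, 54 of them lower. With scan as a random block 0 were called, and leaving out 1 array gave 0 to 172. The totals kept within 1.5 times the main one with normexp, filters on dim probes, other limits, other gaps, and the eligible runs fitted alone. Limits of -0.4 and -0.8 changed the set to 2465 and 824 runs, of which 8.64% and 12.1% were called, against 7.42% of all runs. The median difference of 0.14 was 0.0536 with normexp and 0.067 over probes above background in both channels. It turned to -0.11 on the equal scale, -0.091 after quantile normalization and -0.0612 in the deposited table. Leaving out 1 array gave 0.09 to 0.16. In the input channel, where 41 runs were called (24 lower), 14 were called with scan as a random block and 51 on the equal scale, and 1 to 17 without 1 array, each with the higher runs in the majority. In the MeDIP channel, where 5 were called, 0 were called with scan as a random block, 11 on the equal scale and 0 to 9 without 1 array. On the equal scale the input channel called 3.51% of the depleted runs and 3.39% of all runs, and the MeDIP channel 0.758% and 0.483%. With scan as a random block the input channel called 0.964% and 0.602%, and the MeDIP channel 0% and 0%. Without 1 array the input channel called 0.0689% to 1.17% of the depleted runs and 0.0266% to 0.833% of all runs. For the MeDIP channel these shares were 0% to 0.62% and 0% to 0.461%. Of single probes, where 1094 were called, 22 were called with scan as a random block, 526 on the equal scale (most of them lower), and 56 to 1071 without 1 array. The last range is 0.56% to 10.7% of the depleted runs' probes, against 0.421% to 9.07% of all probes. The number of depleted runs was 2465 at a limit of -0.4, 824 at -0.8 and 400 with normexp. It was 1403 with outlier spots kept, 1737 and 1412 at gaps of 300 and 1000 bp, and 1266 of the 1452 were shared with the same number of lowest runs in the deposited table. The named runs called on the ratio kept their direction under each alternative that gave a value. The 10 higher ones passed the threshold in 159 of 227 such fits and the 3 lower ones in 38 of 68, and none passed with scan as a random block or without any inulin array. The cause of these changes was not tested.

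The labels do not state whether replicate numbers pair the samples. Over all runs, same-numbered arrays had deviations from their group means that correlated at -0.14, 0.28 and 0.33. Between arrays of different numbers the values were -0.38 to 0.22. Deviations within a group are not independent of each other, so these values cannot decide the pairing. With the replicate number as a block, 241 depleted runs were called on the ratio (233 higher). These were 16.6% of the depleted runs, against 11.96% of all runs. On the input channel and on the MeDIP channel this block gave 0 called depleted runs and 0 called among all runs.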

Other observations

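In 16 of the 1452 depleted runs the input or the MeDIP signal differed between the groups by more than 1 on the log2 scale, and in 6 of the 16 both did so in the same direction. The share over all runs is not given here. The input difference had a 5th to 95th percentile of -0.40 to 0.43 over the depleted runs and -0.37 to 0.46 over all runs. For MeDIP these were -0.29 to 0.60 and -0.30 to 0.51. All 16 had higher signals in the inulin group in both channels. Of these, 5 lay between 14914398 and 15221207 on chromosome 5, with input differences from 1.06 to 1.71 and ratio differences from -0.73 to -0.19. Outside chromosome 5, at chr7:147432868-147433542 the input was 1.55 higher and the MeDIP signal 1.97 higher, and at chr17:6860049-6861622 they were 1.06 and 1.13 higher with a ratio difference of 0.09. At chr17 and chr6:52210676-52213092 the input passed the adjusted threshold (limma adjusted p = 0.0258 and 0.0414), and at chr7 neither channel did (adjusted p = 0.103 and 0.105). Left out spots can shift a run's mean on single arrays, and their part here was not tested. The largest MeDIP difference, 2.36 at chr10:18506324-18506869, came with an input difference of 1.52. Its middle probe had a value only on inulin arrays 1 and 2. The run's input level was 2.78 and 2.77 on these arrays, against 0.14 on inulin array 3 and 0.25 to 0.46 on the obesity arrays.

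Of the 17 repeated layouts, 15 had the same sign of the group difference in every run and 2 did not. The differences of 1 layout spanned a median of 0.07 and at most 0.15 log2 units, and over all layouts they lay between -0.09 and 0.53. Every run was positive in 14 layouts under median centring and in 2 on the equal scale, where every run was negative in 14. In the 2 layouts on chromosome 10 from 99797115 to 99829586 the 5 runs differed by 0.30 to 0.45, and in the layout on chromosome 4 from 73521685 to 73553118 the 3 runs by 0.25 to 0.30. In the layout on chromosome 8 between 22193817 and 22331697 the 2 runs differed by 0.36 and 0.43, and in the one between 22566652 and 22706206 by -0.09 and 0.07.

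Over the 1452 depleted runs, the ratios of pairs of arrays correlated at 0.91 to 0.95 within the inulin group, 0.84 to 0.92 within the obesity group and 0.82 to 0.90 between the groups. These pairs share the probes, and the inulin arrays share a scan. The 3 arrays per group, the lack of a scan with both groups, the dim MeDIP signal and the unknown base composition and gene content of the runs limit what these values show.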
